A study of Mus musculus with 8 samples.

Results

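The subject here is how far the response to EPZ4777 differed between the hairpin arms of an array study of murine MLL-AF9 leukemic cells, which are driven by the fusion of MLL, itself a histone methyltransferase, with AF9. EPZ4777 inhibits DOT1L, the histone methyltransferase that acts on lysine in the core of histone H3, and all 8 arrays of the series entered. In cells labelled shSirt1, which carried a hairpin against the NAD-dependent deacetylase Sirt1, the codes A1 and A5 each had an array after 21 days in 3 µM EPZ4777 and an array in DMSO, the solvent. In shLUC cells, whose control hairpin is directed at luciferase, the codes A4 and D11 each had an array after 6 days in 3 µM EPZ4777 and an array in DMSO. All 4 groups of 2 arrays therefore shared the fusion, a hairpin and a medium of IMDM with 15% serum, SCF, IL-3 and IL-6. The response within a code was its log2 intensity in EPZ4777 minus that in DMSO, and the difference of effects was the mean of A1 and A5 minus the mean of A4 and D11. A gene was called separated where that difference was at least 1 log2 and both within-code values of either arm lay on the same side of both values of the other. Of 18193 genes, each read from its brightest probe set on average, 278 were separated.

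The arms differed in hairpin and in time in drug, so a difference between them cannot be told apart as one of hairpin or of time, and for the DMSO arrays no time is labelled. The meaning of the codes is not stated in the sources. Nothing in the labels says that both arrays of a group are from different cultures, so p-values measured the spread among these samples alone, possibly a technical one. An exact permutation test of 2 within-code values against 2 cannot go below p = 0.333, so genes were tested with limma across all of them.

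MLL fusions recruit DOT1L to their target genes, among them the HOXA genes and Meis1, and the mark that DOT1L sets keeps these genes transcribed. When that mark is lost, leukemic myeloid cells leave the self-renewing state and mature, and the myeloid series offers them several ends, chiefly neutrophil granulocytes, monocytes and macrophages. SIRT1 removes acetyl groups from histones and other proteins and takes part in gene silencing. Neutrophil maturation is marked by granule proteins such as Lcn2 and Camp, and the macrophage state by complement C1q, the mannose receptor Mrc1 and secreted proteases of the matrix.

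The targeted gene was read first. Sirt1 was at 8.85 (A1) and 9.73 (A5) in EPZ4777 and 8.70 (A1) and 9.55 (A5) in DMSO in cells labelled shSirt1, against 9.44 (A4) and 9.83 (D11) in EPZ4777 and 9.46 (A4) and 9.58 (D11) in DMSO in shLUC cells, all as log2 intensity. The A1 arrays lay below all others, while the A5 arrays lay within the range of the shLUC arrays, so the label is not borne out for A5 and directions below are those of cells labelled shSirt1. The A1 array in DMSO also stood apart: 131 genes there lay at least 1 log2 above all 7 other arrays, where the other arrays had 0 to 41 such genes. Among them were genes of fat cells. Adipoq, the fat cell hormone adiponectin and named after its values were seen, was at 10.63 there and between 3.48 and 4.06 elsewhere. Fabp4, a fatty acid binding protein of adipocytes and macrophages, was at 13.18 there and between 3.88 and 8.36 elsewhere. The summed intensity of 19 adipocyte genes, a list drawn up after that array was seen, was 30084 there, against 3556 to 5580 on the other arrays. Of 14 stroma genes the median effect was -1.37 in A1 and 0.07 in A5. A gene high on that array alone appears as lower with EPZ4777 in A1, which applied to 31 of the 211 separated genes with a negative difference and to 0 of the 67 with a positive difference. Values are therefore given for each code, and 141 of the 278 separated genes were also at least 1 log2 apart in the same direction with A1 alone and with A5 alone.

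The test of the difference asked for which genes the response to EPZ4777 was not the same in the arms. In limma, 0 of 18193 genes passed at an adjusted p under 0.05 (0%), and the smallest adjusted p was 0.150. At an unadjusted p under 0.05, 635 genes (3.49%) had a higher and 586 (3.22%) a lower response in cells labelled shSirt1. With the code as a fixed block 3 genes passed (0.0165%): C1qb and Smad1, each at a limma adjusted p of 0.0244, and Mmp13 at 0.0247. Mmp13 is named after its values were seen. With the code as a random block 3 genes passed, which were Ahnak, C3ar1 and C1qb at limma adjusted p of 0.0345, 0.0345 and 0.0424. C1qb passed in both of these fits but not without a block. With the fixed block 0 genes passed without the code A4 (smallest limma adjusted p = 0.216) or without D11 (0.237), so C1qb, Smad1 and Mmp13 each lost the call when either shLUC code was left out. Leaving out A5 in DMSO gave 89 calls, led by Adipoq and other genes that were high on the A1 array in DMSO, which was then the only DMSO array of its group. Leaving out A1 in EPZ4777 gave 2 calls, Csn2 and S100a4.

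**Figure D1:**
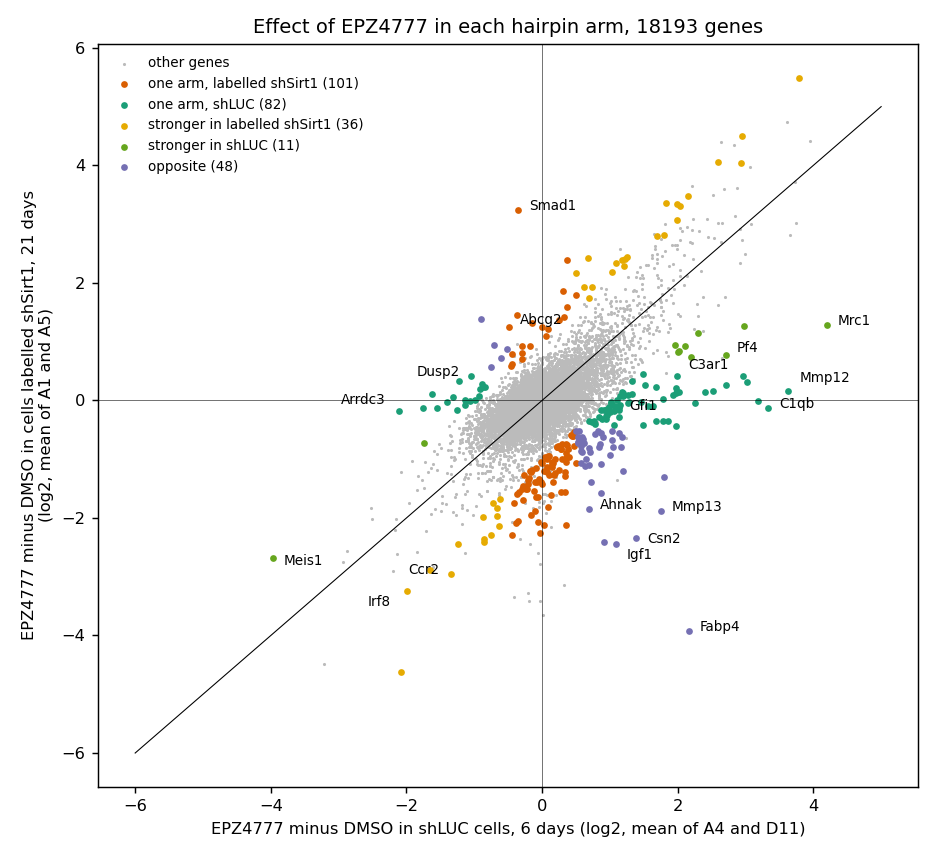
Mean log2 effect of EPZ4777 in cells labelled shSirt1 after 21 days (y axis) against that in shLUC cells after 6 days (x axis), 1 point per gene. The diagonal marks equal effects, colours mark the 278 separated genes by pattern, and more of them lie below the diagonal (211) than above it (67).

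C1qb encodes a chain of complement C1q, the starter of the classical complement pathway, and is made by macrophages. Its log2 intensity was 3.60 (A1) and 3.83 (A5) in EPZ4777 and 3.84 (A1) and 3.87 (A5) in DMSO in cells labelled shSirt1, against 7.09 (A4) and 7.89 (D11) in EPZ4777 and 3.87 (A4) and 4.45 (D11) in DMSO in shLUC cells. Only the shLUC arrays in EPZ4777 were high, and the other 6 lay between 3.60 and 4.45, where the lower quartile of all probe sets was 3.75 to 3.84. The difference of effects was -3.46 (standard error 0.40, limma adjusted p = 0.203, or 0.0244 with the code as a block), and all 3 probe sets of C1qb had this sign.

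Smad1, which carries signals of bone morphogenetic proteins to the nucleus, ran the other way. It was at 7.61 (A1) and 6.73 (A5) in EPZ4777 and 4.43 (A1) and 3.44 (A5) in DMSO in cells labelled shSirt1, against 3.01 (A4) and 3.09 (D11) in EPZ4777 and 3.47 (A4) and 3.35 (D11) in DMSO in shLUC cells. Only the arrays labelled shSirt1 in EPZ4777 were high, and no other array was above 4.43. The difference was 3.59 (standard error 0.52, limma adjusted p = 0.319, or 0.0244 with the code as a block), with the same sign in all 3 probe sets.

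Mmp13, a collagenase, had opposite signs in the arms. It was at 3.12 (A1) and 3.01 (A5) in EPZ4777 and 5.10 (A1) and 4.78 (A5) in DMSO in cells labelled shSirt1, against 6.25 (A4) and 7.49 (D11) in EPZ4777 and 4.32 (A4) and 5.91 (D11) in DMSO in shLUC cells. The within-code values were -1.98 and -1.77 in A1 and A5 and 1.93 and 1.58 in A4 and D11. With the code as a block Mmp13 fell in cells labelled shSirt1 (limma adjusted p = 0.0123) and rose in shLUC cells (limma adjusted p = 0.0159), and neither passed without the block. The difference was -3.63 (standard error 0.78, limma adjusted p = 0.534 without the block).

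Ahnak, a giant scaffold protein under the plasma membrane, was at 5.22 (A1) and 4.86 (A5) in EPZ4777 and 6.99 (A1) and 6.77 (A5) in DMSO in cells labelled shSirt1, against 8.24 (A4) and 8.23 (D11) in EPZ4777 and 7.37 (A4) and 7.72 (D11) in DMSO in shLUC cells. It fell in cells labelled shSirt1 (-1.84, standard error 0.17, limma adjusted p = 0.0385) and measured 0.69 in shLUC cells (limma adjusted p = 0.0717, or 0.0425 with the code as a block). The difference of -2.53 (standard error 0.24) had a limma adjusted p of 0.150. It rests on a single probe set: the other 3 measured -0.11, -0.51 and 0.14, and the mean of all 4 gave -0.75 (limma adjusted p = 0.492). C3ar1, the receptor for complement fragment C3a, was at 5.51 and 5.39 in EPZ4777 and 5.01 and 5.07 in DMSO in A1 and A5, against 7.35 and 7.35 in EPZ4777 and 5.31 and 5.40 in DMSO in A4 and D11. It measured 0.41 in cells labelled shSirt1 (limma adjusted p = 0.156), rose in shLUC cells (1.99, standard error 0.10, limma adjusted p = 0.00407), and differed by -1.58 (standard error 0.14, limma adjusted p = 0.150), with the same sign in all 3 probe sets.

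The promoters of these genes are shown because the genes carry the contrast between the arms: Smad1 responded in cells labelled shSirt1, C1qb, C1qc and C3ar1 in shLUC cells, and Mmp13 with opposite signs. Of 6 genes looked up, C1qa and these 5, 5 were found in the promoter table. The sequences are the 250 bases before each gene's start, from RefSeq on GRCm38.p6, read along the gene from 5′ to 3′. Capitals mark 3 motifs on either strand: the AP-1 site TGAGTCA, the MAF half-site TGCTGA and the ETS site GAGGAA bound by PU.1, the chief transcription factor of macrophages.
C1qb, chr4:136886201-136886450, minus strand: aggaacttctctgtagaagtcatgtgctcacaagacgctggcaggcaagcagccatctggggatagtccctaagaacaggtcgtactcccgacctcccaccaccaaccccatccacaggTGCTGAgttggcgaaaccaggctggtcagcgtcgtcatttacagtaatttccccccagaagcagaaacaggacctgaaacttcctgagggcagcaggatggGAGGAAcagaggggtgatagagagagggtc
C1qc, chr4:136892915-136893164, minus strand: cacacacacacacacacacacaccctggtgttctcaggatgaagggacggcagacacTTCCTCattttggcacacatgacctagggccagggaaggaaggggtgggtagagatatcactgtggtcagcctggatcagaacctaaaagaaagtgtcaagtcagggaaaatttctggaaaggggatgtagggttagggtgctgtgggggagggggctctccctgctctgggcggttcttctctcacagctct
C3ar1, chr6:122856158-122856407, minus strand: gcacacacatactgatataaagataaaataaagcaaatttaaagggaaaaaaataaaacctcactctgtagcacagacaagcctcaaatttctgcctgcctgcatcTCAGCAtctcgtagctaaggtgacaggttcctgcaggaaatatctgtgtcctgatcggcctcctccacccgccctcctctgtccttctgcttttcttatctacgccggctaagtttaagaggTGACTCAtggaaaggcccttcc
Mmp13, chr9:7272264-7272513, plus strand: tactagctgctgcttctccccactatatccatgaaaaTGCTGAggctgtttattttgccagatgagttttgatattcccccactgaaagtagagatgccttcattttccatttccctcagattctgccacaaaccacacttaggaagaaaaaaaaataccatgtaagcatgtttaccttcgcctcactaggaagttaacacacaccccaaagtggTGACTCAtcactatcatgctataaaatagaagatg
Smad1, chr8:79399429-79399678, minus strand: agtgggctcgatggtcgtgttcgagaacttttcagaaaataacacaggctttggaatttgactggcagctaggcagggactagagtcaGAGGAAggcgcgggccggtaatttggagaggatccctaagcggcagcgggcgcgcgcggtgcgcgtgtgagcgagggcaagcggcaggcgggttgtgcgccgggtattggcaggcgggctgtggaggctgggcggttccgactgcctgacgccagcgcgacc
The AP-1 site stood 22 to 16 bases before the start of C3ar1 and 35 to 29 bases before that of Mmp13, and it occurs in 4.5% of 32841 promoters of this length. The MAF half-site was found before C1qb, C3ar1 and Mmp13, and in 16.1% of all promoters. The ETS site was found before C1qb, C1qc and Smad1, and in 23.3% of all promoters. No 2 of these matches overlapped. A match is a description of letters and does not show binding.

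By pattern, the separated genes comprised 67 with a higher difference (0.368% of genes) and 211 with a lower difference (1.16%). A gene was placed with a single arm where the smaller of the arm means was under 0.5 log2 in size. Such genes numbered 20 up and 81 down in cells labelled shSirt1 and 64 up and 18 down in shLUC cells. Where both arm means had the same sign, 22 genes were further up and 14 further down in cells labelled shSirt1, and 9 further up and 2 further down in shLUC cells. Opposite responses numbered 5 up in cells labelled shSirt1 with down in shLUC, and 43 down in cells labelled shSirt1 with up in shLUC. These patterns describe the 4 within-code values and carry no test. Their counts depend on the 0.5 limit: opposite responses numbered 17 and 82 at a limit of 0.25 and 1 and 13 at 0.75, and genes placed with cells labelled shSirt1 alone 5 up and 46 down at 0.25. At the limit, Afap1l1 (1.0016) and Pank1 (-1.0019) lay just inside and Gask1b (-0.9961) and Dubr (-0.9954) just outside.

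**Figure D2:**
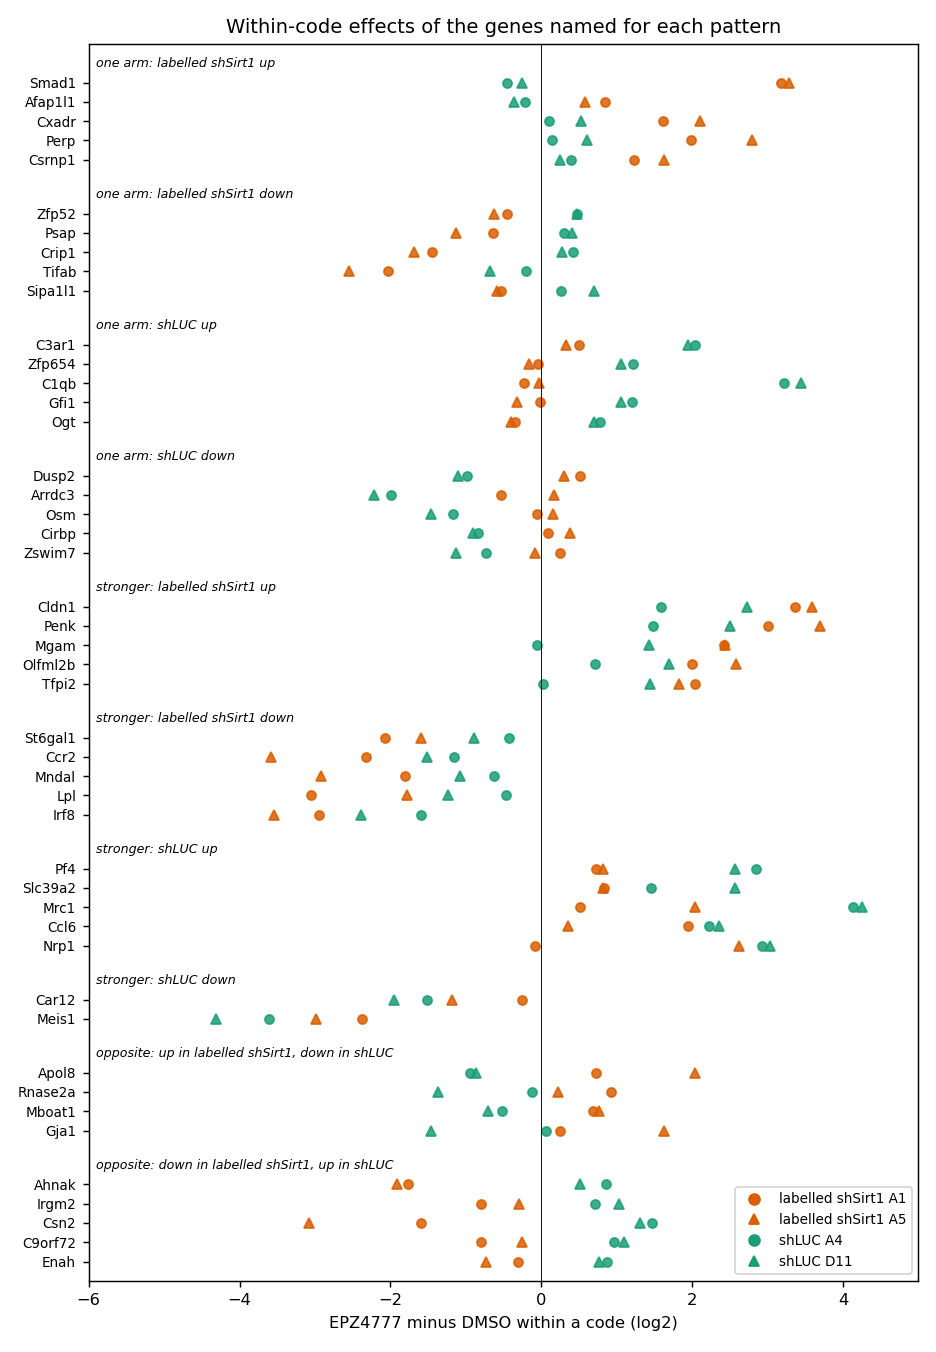
EPZ4777 minus DMSO within each code (x axis, log2) for the genes named in each pattern, 1 row per gene. Orange marks are A1 and A5, labelled shSirt1, green marks are A4 and D11, shLUC, and in every row the orange marks lie on one side of the green.

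The 64 genes up in shLUC cells alone included macrophage genes. For scale, 39 of all genes (0.214%) rose and 33 (0.181%) fell in cells labelled shSirt1 in limma, against 295 (1.62%) and 429 (2.36%) in shLUC cells. These calls rest on few arrays: 0 genes passed in either arm without the A4 or the D11 array in DMSO, and in cells labelled shSirt1 0 passed without A1 in DMSO and 1 without A5 in EPZ4777. Of 25 macrophage genes 0 rose and 0 fell in cells labelled shSirt1, while 9 rose and 0 fell in shLUC cells. With the code as a block, 0 rose and 1 fell in cells labelled shSirt1, and 11 rose and 0 fell in shLUC cells. The same fit over all genes had 239 that rose (1.31%) and 165 that fell (0.907%) in cells labelled shSirt1, and 660 (3.63%) and 656 (3.61%) in shLUC cells. Of the 25, 13 were separated with a negative difference and 0 with a positive one (1.16% and 0.368% of all genes). This list, like the others, was chosen with earlier results of these data known. Its counts are therefore a description and no independent support. Among the 13 was Fabp4, high on the A1 array in DMSO, with a difference of -6.09, or -0.71 with A5 alone. The median difference of the list was -1.26, against 0.03 over all genes. The median effect was -0.09 in A1 and -0.04 in A5, against 0.55 in A4 and 0.76 in D11. Fewer macrophages and less of these transcripts per cell cannot be told apart in such bulk RNA.

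Mmp12, the macrophage elastase, was at 3.95 and 4.10 in EPZ4777 and 3.70 and 4.04 in DMSO in A1 and A5, against 7.02 and 8.71 in EPZ4777 and 3.996 and 4.48 in DMSO in A4 and D11. Only the shLUC arrays in EPZ4777 were high. It measured 0.16 in cells labelled shSirt1 (limma adjusted p = 0.901) and rose in shLUC cells (3.63, standard error 0.49, limma adjusted p = 0.0290). The genes of the remaining C1q chains, C1qa and C1qc, measured -0.35 each in cells labelled shSirt1 and likewise rose in shLUC cells (1.78 and 1.68, limma adjusted p = 0.0301 and 0.0442). Maf, a transcription factor of macrophages, was at 6.21 and 5.88 in EPZ4777 and 5.17 and 6.09 in DMSO in A1 and A5, against 9.58 and 10.98 in EPZ4777 and 6.58 and 8.04 in DMSO in A4 and D11. All 4 arrays labelled shSirt1 lay below all 4 shLUC arrays, by more in EPZ4777 (-4.23) than in DMSO (-1.68), which gave the difference (-2.55, standard error 0.86, limma adjusted p = 0.654). Of its 6 probe sets 5 shared the sign.

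Lgmn, Pla2g7 and Msr1 are named after their values were seen, as members of the same list. Lgmn, a lysosomal protease, measured -0.43 in cells labelled shSirt1 and rose in shLUC cells (1.97, limma adjusted p = 0.0396). Pla2g7, a secreted phospholipase of macrophages, measured -0.01 in cells labelled shSirt1 and rose in shLUC cells (3.19, limma adjusted p = 0.0355). Msr1, a scavenger receptor, measured -0.34 in cells labelled shSirt1 and rose in shLUC cells (1.86, limma adjusted p = 0.0442). Their differences were -2.41, -3.20 and -2.20, and each was at least 1 log2 with either code labelled shSirt1 alone.

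**Figure D3:**
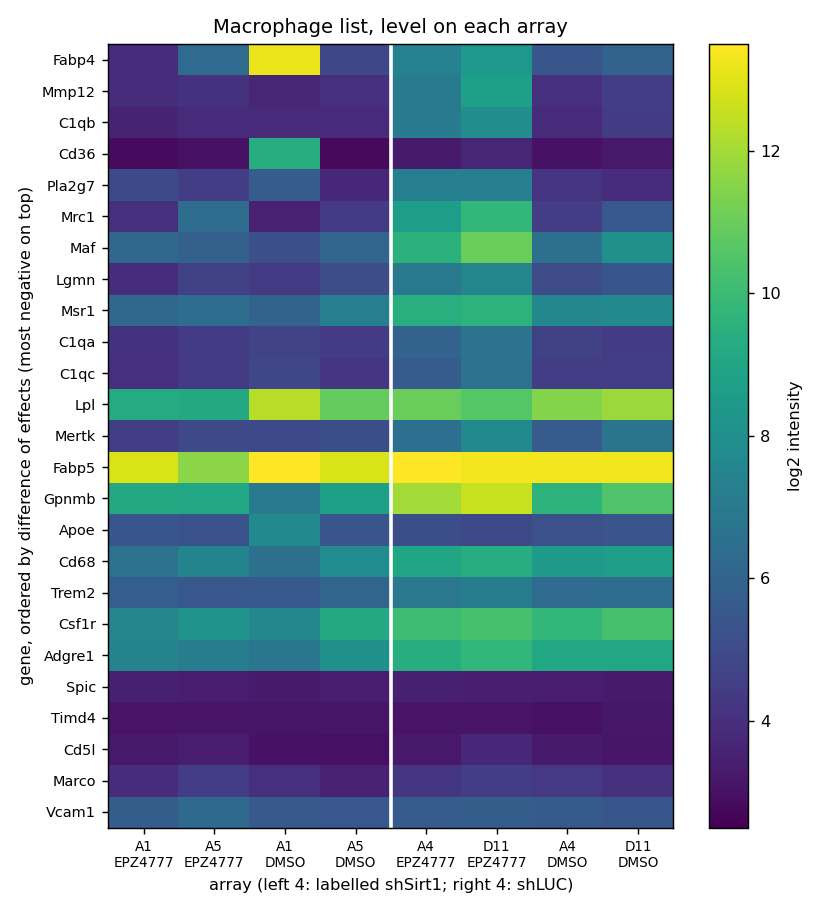
Log2 intensity of 25 macrophage genes (rows, most negative difference of effects on top) on the 8 arrays, with the 4 arrays labelled shSirt1 left of the white line and the 4 shLUC arrays right of it. C1qb, Mmp12 and Mrc1 are bright in the shLUC arrays in EPZ4777, and Fabp4 and Cd36 on the A1 array in DMSO.

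Other genes up in shLUC cells alone had various functions. Gfi1, a transcriptional repressor needed for neutrophils, was at 10.88 and 10.82 in EPZ4777 and 10.90 and 11.14 in DMSO in A1 and A5, against 12.18 and 12.12 in EPZ4777 and 10.98 and 11.07 in DMSO in A4 and D11. The DMSO arrays of both arms overlapped, and only the shLUC arrays in EPZ4777 stood above 12. Gfi1 measured -0.16 in cells labelled shSirt1 (limma adjusted p = 0.529) and rose in shLUC cells (1.13, standard error 0.12, limma adjusted p = 0.0244). Ogt, the enzyme that attaches N-acetylglucosamine to nuclear and cytoplasmic proteins, measured -0.37 in cells labelled shSirt1 and rose in shLUC cells (0.73, limma adjusted p = 0.0301). Its difference was -1.11, and 4 of 5 probe sets shared the sign, but those not used lay between -0.52 and 0.01. Zfp654, a zinc finger gene, measured -0.10 in cells labelled shSirt1 and rose in shLUC cells (1.14, limma adjusted p = 0.0224). Il7r, the receptor chain for interleukin 7 and a FOXO target, measured 0.22 in cells labelled shSirt1 and rose in shLUC cells (1.69, limma adjusted p = 0.0290). Atp6v0d2, a subunit of the vacuolar proton pump, measured 0.27 in cells labelled shSirt1 and rose in shLUC cells (2.71, limma adjusted p = 0.0402).

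The chemokine Ccl2 and the transcription factor Cebpa, a driver of granulocyte fate named after its values were seen, did not pass in either arm without the block. Ccl2 measured 0.13 in cells labelled shSirt1 and 1.98 in shLUC cells (limma adjusted p = 0.0926, or 0.0284 with the code as a block). Cebpa measured -0.32 in cells labelled shSirt1 and 0.88 in shLUC cells (limma adjusted p for shLUC = 0.0801, or 0.0313 with the code as a block). Of the 64 genes 40 held with either code labelled shSirt1, and in 59 of the 64 the larger part of the difference lay between the EPZ4777 arrays.

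The 18 genes down in shLUC cells alone were of mixed kinds. Arrdc3, an arrestin-like regulator of receptor traffic, was at 7.66 and 8.31 in EPZ4777 and 8.20 and 8.15 in DMSO in A1 and A5, against 6.08 and 6.01 in EPZ4777 and 8.08 and 8.23 in DMSO in A4 and D11. The 4 DMSO arrays lay within 0.16 of each other, and only the shLUC arrays in EPZ4777 were low. Arrdc3 measured -0.18 in cells labelled shSirt1 and fell in shLUC cells (-2.11, standard error 0.20, limma adjusted p = 0.0244). Dusp2, a phosphatase of MAP kinases, measured 0.41 in cells labelled shSirt1 and fell in shLUC cells (-1.04, limma adjusted p = 0.0298). Osm, the cytokine oncostatin M, measured 0.05 in cells labelled shSirt1 and fell in shLUC cells (-1.32, limma adjusted p = 0.0285). The RNA-binding protein Cirbp and the DNA repair factor Zswim7 measured 0.23 and 0.08 in cells labelled shSirt1 and also fell in shLUC cells (-0.87 and -0.93, limma adjusted p = 0.0362 and 0.0326). Ccl3, an inflammatory chemokine, measured 0.33 in cells labelled shSirt1 and -1.23 in shLUC cells (limma adjusted p = 0.0818, or 0.0277 with the code as a block). Sox4, a transcription factor of progenitors, measured -0.16 in cells labelled shSirt1 and -1.26 in shLUC cells (limma adjusted p = 0.0580, or 0.0394 with the code as a block), and of its 8 probe sets 6 measured 0.42 to 1.10 and the others 0.06 and 0.0005.

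Of the 20 genes up in cells labelled shSirt1 alone, 6 held with either code, and Smad1 had the largest difference among those named. Csrnp1, Afap1l1, Fosb and Hdc, given below, were not among the 6. Perp, a membrane protein induced by p53, was at 7.76 and 7.84 in EPZ4777 and 5.77 and 5.05 in DMSO in A1 and A5, against 4.39 and 5.14 in EPZ4777 and 4.24 and 4.54 in DMSO in A4 and D11. Both arrays labelled shSirt1 in EPZ4777 lay above all others. Perp rose in cells labelled shSirt1 (2.39, standard error 0.31, limma adjusted p = 0.0408) and measured 0.37 in shLUC cells (limma adjusted p = 0.564). Cxadr, an adhesion protein and virus receptor, rose in cells labelled shSirt1 (1.86, limma adjusted p = 0.0385) and measured 0.31 in shLUC cells, with 3 of 5 probe sets of the same sign. Csrnp1, a nuclear protein of the early response, rose (1.43, limma adjusted p = 0.0399) and measured 0.32 in shLUC cells. Its difference was 1.11, and that of its other probe set 0.11. Abcg2, a drug exporter that marks stem cells, was at 8.93 and 8.66 in EPZ4777 and 7.96 and 7.14 in DMSO in A1 and A5, against 6.25 and 6.67 in EPZ4777 and 6.72 and 7.16 in DMSO in A4 and D11. It measured 1.25 in cells labelled shSirt1 (limma adjusted p = 0.143, or 0.0323 with the code as a block) and -0.48 in shLUC cells. Afap1l1, an actin-associated adaptor, measured 0.71 in cells labelled shSirt1 and -0.29 in shLUC cells. Fosb, an AP-1 subunit, and Hdc, the enzyme that makes histamine, measured 1.21 and 1.59 in cells labelled shSirt1 and 0.08 and 0.37 in shLUC cells. None of these 3 genes passed in either arm.

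The 81 genes down in cells labelled shSirt1 alone included the 23 that were high on the A1 array in DMSO, such as Col3a1, a fibrillar collagen chain (-4.09 in A1, -0.14 in A5), and Ackr3, a chemokine scavenger receptor (-3.02 in A1, -0.20 in A5). With either code alone 36 of the 81 held. Tifab, a regulator of innate immune signalling, was at 6.84 and 6.09 in EPZ4777 and 8.87 and 8.63 in DMSO in A1 and A5, against 8.82 and 8.56 in EPZ4777 and 9.03 and 9.24 in DMSO in A4 and D11. Both arrays labelled shSirt1 in EPZ4777 lay below all others, and Tifab fell there (-2.29, standard error 0.25, limma adjusted p = 0.0399) and measured -0.45 in shLUC cells (limma adjusted p = 0.366). Psap, the precursor of lysosomal saposins, and Crip1, a LIM domain protein, measured -0.89 and -1.56 in cells labelled shSirt1 (limma adjusted p = 0.0840 and 0.0683) and 0.36 and 0.34 in shLUC cells. Crip1 fell in cells labelled shSirt1 with the code as a block (limma adjusted p = 0.0123). Wfdc17, a secreted inhibitor of inflammation named after its values were seen, was at 7.58 and 7.96 in EPZ4777 and 8.92 and 10.86 in DMSO in A1 and A5, against 12.23 and 12.41 in EPZ4777 and 11.58 and 12.36 in DMSO in A4 and D11. All 4 arrays labelled shSirt1 lay below all 4 shLUC arrays, in DMSO as well.

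Where both arm means had the same sign, the genes further up in cells labelled shSirt1 were of mixed kinds. Cldn1, a tight junction protein, rose in cells labelled shSirt1 (3.47, standard error 0.35, limma adjusted p = 0.0385) and in shLUC cells (2.16, standard error 0.35, limma adjusted p = 0.0346), with a difference of 1.31. Penk, the precursor of enkephalins, also rose in cells labelled shSirt1 (3.35, limma adjusted p = 0.0399) and in shLUC cells (1.99, limma adjusted p = 0.0490), with a difference of 1.36. Mgam, a glucosidase, measured 2.42 and 2.44 in A1 and A5, against -0.06 and 1.42 in A4 and D11. It passed in cells labelled shSirt1 with the code as a block (limma adjusted p = 0.124, or 0.0410 with it). Its difference of 1.74 lay between the DMSO arrays (-1.75) and not between the EPZ4777 arrays (-0.01). In 16 of these 22 genes the larger part of the difference lay between the DMSO arrays.

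Among genes further down in cells labelled shSirt1, Irf8, a factor needed for monocytes and dendritic cells, fell in cells labelled shSirt1 (-3.25, limma adjusted p = 0.0385) and in shLUC cells (-1.99, limma adjusted p = 0.0355). Its log2 intensity was 5.95 and 4.98 in EPZ4777 and 8.90 and 8.53 in DMSO in A1 and A5, against 7.57 and 7.02 in EPZ4777 and 9.16 and 9.40 in DMSO in A4 and D11. Each arm was lower in EPZ4777 than in DMSO, and the arrays labelled shSirt1 ended lowest. Ccr2, the chemokine receptor of monocytes, fell in cells labelled shSirt1 (-2.95, limma adjusted p = 0.0385) and measured -1.34 in shLUC cells (limma adjusted p = 0.0505). Its difference was -1.61, and 4 of 4 probe sets shared the sign, although 1 of them lay at -0.002. St6gal1, a sialyltransferase, fell in cells labelled shSirt1 (-1.83, limma adjusted p = 0.0393) and measured -0.66 in shLUC cells, with 1 of 2 probe sets of the same sign. Ifi209, an interferon-induced gene, also fell in cells labelled shSirt1 (-2.89, limma adjusted p = 0.0399) and measured -1.65 in shLUC cells (limma adjusted p = 0.0552, or 0.0360 with the code as a block). Its difference was -1.24, and that of its other probe set -0.18.

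In shLUC cells the further rises were those of Mrc1, Pf4 and Slc39a2, among others. Mrc1 was at 4.04 and 6.39 in EPZ4777 and 3.53 and 4.35 in DMSO in A1 and A5, against 8.62 and 9.80 in EPZ4777 and 4.48 and 5.55 in DMSO in A4 and D11. The codes labelled shSirt1 disagreed in size, 0.51 in A1 and 2.04 in A5, and both stayed below the shLUC codes at 4.14 and 4.25. Mrc1 rose in shLUC cells (limma adjusted p = 0.0418) and had a difference of -2.92 (standard error 1.12, limma adjusted p = 0.710). Pf4, a platelet chemokine also made by macrophages, measured 0.77 in cells labelled shSirt1 (limma adjusted p = 0.160, or 0.0442 with the code as a block), rose in shLUC cells (2.71, standard error 0.19, limma adjusted p = 0.00979) and differed by -1.94. Slc39a2, a zinc importer, measured 0.83 in cells labelled shSirt1 and rose in shLUC cells (2.01, limma adjusted p = 0.0285).

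The 2 genes further down in shLUC cells were Car12, a carbonic anhydrase, and Meis1, the homeobox partner of HOX proteins. Neither held with either code labelled shSirt1: with A5 alone their differences were 0.55 and 0.98. The probe sets not used had differences of 0.26 and -0.11 for Car12 and 0.41 and 0.03 for Meis1. With the mean of probe sets 0 genes had this pattern. Meis1 was at 5.27 and 3.93 in EPZ4777 and 7.64 and 6.91 in DMSO in A1 and A5, against 4.01 and 3.62 in EPZ4777 and 7.62 and 7.94 in DMSO in A4 and D11. The EPZ4777 arrays of the arms overlapped, since A5 ended between A4 and D11, and the DMSO arrays overlapped too. Meis1 measured -2.68 in cells labelled shSirt1 (limma adjusted p = 0.0694, or 0.0146 with the code as a block) and fell in shLUC cells (-3.96, limma adjusted p = 0.0244), with a difference of 1.28 (standard error 0.62, limma adjusted p = 0.765).

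The opposite patterns ran mostly one way, 43 genes against 5. Of the 43, 7 were high on the A1 array in DMSO and 30 held with either code labelled shSirt1 alone. Of the 5 these numbers were 0 and 3. The signs are those of arm means: Fabp4, among the 43, measured -9.30 in A1 but 1.45 in A5. Csn2, which encodes the milk protein beta-casein, was among the brighter genes: 10.87 and 9.46 in EPZ4777 and 12.46 and 12.54 in DMSO in A1 and A5, against 13.96 and 13.60 in EPZ4777 and 12.50 and 12.30 in DMSO in A4 and D11. The 4 DMSO arrays lay within 0.25 of each other, and in EPZ4777 the arms parted. Csn2 measured -2.34 in cells labelled shSirt1 (limma adjusted p = 0.0759, or 0.0442 with the code as a block) and 1.39 in shLUC cells (limma adjusted p = 0.101), a difference of -3.72 (standard error 0.57, limma adjusted p = 0.319), and its other probe set measured -5.26. Igf1, the growth factor, named after its values were seen, was at 5.01 and 4.81 in EPZ4777 and 8.05 and 6.67 in DMSO in A1 and A5, against 9.05 and 9.83 in EPZ4777 and 8.11 and 8.59 in DMSO in A4 and D11. It measured -2.45 in cells labelled shSirt1 (limma adjusted p = 0.0865, or 0.0283 with the code as a block). It differed by -3.54 (standard error 0.64, limma adjusted p = 0.456), and all 4 probe sets shared the sign.

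S100a4, a calcium-binding protein of motile cells, measured -0.25 and -2.36 in A1 and A5, against 2.06 and 1.53 in A4 and D11. Its difference of -3.10 was thus set more by A5 than by A1. Ctss, cathepsin S of monocytes and macrophages, measured -0.52 and -1.33 in A1 and A5, against 1.19 and 0.82 in A4 and D11, and the arms already differed by -1.33 in DMSO. The smaller opposite genes were C9orf72, an endosome and autophagy gene, Irgm2, an interferon-induced GTPase, and Enah, a regulator of actin. These 3 measured -0.53, -0.55 and -0.52 in cells labelled shSirt1 and rose in shLUC cells (1.03, 0.87 and 0.82, limma adjusted p = 0.0347, 0.0371 and 0.0408). Of the 6 probe sets of Enah, those not used had differences between -0.70 and -0.31, against -1.34. None of the 5 genes of the reverse kind passed in either arm. Apol8, of the apolipoprotein L family, measured 1.38 in cells labelled shSirt1 and -0.90 in shLUC cells. Mboat1, an acyltransferase of phospholipids, measured 0.72 in cells labelled shSirt1 and -0.61 in shLUC cells and passed in both with the code as a block (limma adjusted p = 0.0434 and 0.0381). Rnase2a, a ribonuclease of eosinophils, and Gja1, a gap junction protein, measured 0.57 and 0.94 in cells labelled shSirt1 and -0.75 and -0.70 in shLUC cells. By code Gja1 measured 0.25 and 1.62 in A1 and A5, against 0.06 and -1.46 in A4 and D11. Its negative shLUC mean was thus set by D11, and its DMSO arrays ranged over 3.86 log2.

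A difference of effects is the gap between the arms in EPZ4777 minus the gap in DMSO, and both can be read from the arrays. In 192 of the 278 separated genes the larger part lay between the EPZ4777 arrays and in 86 between the DMSO arrays. Among the 141 that held with either code the numbers were 117 and 24. C1qb, Smad1, Csn2, Gfi1 and Arrdc3 had gaps of -3.77, 4.12, -3.62, -1.30 and 1.94 log2 in EPZ4777 and of -0.31, 0.53, 0.11, -0.00 and 0.02 in DMSO. For these the arms were close without drug. Mgam (-0.01 in EPZ4777 and -1.75 in DMSO) and Mboat1 (0.29 and -1.05) were of the other kind.

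**Figure D4:**
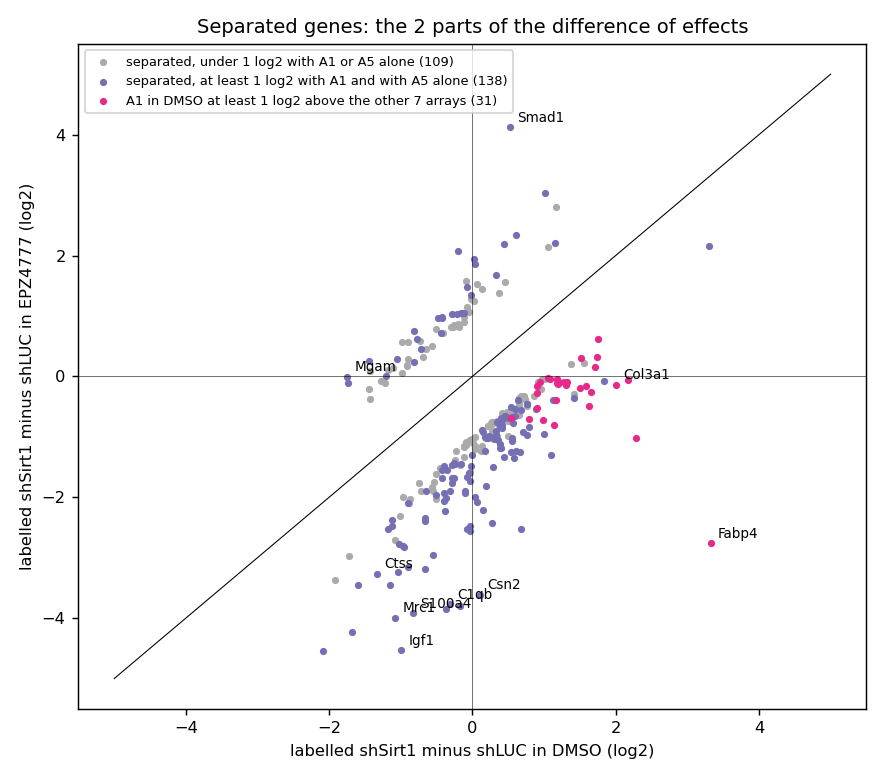
Gap between the arms, labelled shSirt1 minus shLUC (log2), in EPZ4777 (y axis) and in DMSO (x axis) for the 278 separated genes. Distance from the diagonal is the difference of effects, C1qb and Smad1 lie near 0 on the x axis, and genes high on the A1 array in DMSO (pink) lie to the right.

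The neutrophil lists had median effects above 0 in all 4 codes. The secondary and tertiary granule list (20 genes) had median effects of 2.20 in A1 and 2.71 in A5, against 1.24 in A4 and 2.33 in D11, and the late neutrophil list (16 genes) had 1.74 and 2.04 against 0.95 and 1.76. Of the granule genes 1 rose in cells labelled shSirt1 and 4 in shLUC cells, or 11 and 11 with the code as a block (1.31% and 3.63% of all genes), and none fell. Their median difference was 0.63. The median gap between the arms was -0.19 in EPZ4777 and -0.90 in DMSO. Among single genes, Olfm4, a granule glycoprotein, rose in cells labelled shSirt1 (3.61, limma adjusted p = 0.0450) and in shLUC cells (2.88, limma adjusted p = 0.0362). The neutrophil antigen gene Cd177 and the siderophore-binding granule protein gene Lcn2 measured 4.42 and 3.98 in cells labelled shSirt1, where both passed with the code as a block (limma adjusted p = 0.0121 and 0.00292), and rose in shLUC cells (3.96 and 3.07, limma adjusted p = 0.0393 and 0.0473). The differences of Camp, an antimicrobial granule peptide (1.47), and Ngp, a granule protein (1.28), rested on their DMSO level in A1, 7.37 and 9.17, below the other 7 arrays. Without A1 in DMSO that of Camp was -0.29. With the code as a block Camp and Ngp rose in cells labelled shSirt1 (limma adjusted p = 0.0264 and 0.0157) and in shLUC cells (0.0387 and 0.0313).

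Of 17 monocyte genes 3 fell in cells labelled shSirt1 and 2 in shLUC cells (0.181% and 2.36% of all genes), and 0 rose. With the code as a block 4 and 3 fell (0.907% and 3.61% of all genes), and 1 rose in shLUC cells. Separated among the 17 were Ccr2, Ctss, Irf8 and Tifab, all with a negative difference. The list's median difference was -0.04. Of 21 lysosome genes 0 rose in cells labelled shSirt1 and 3 in shLUC cells (0.214% and 1.62% of all genes). With the code as a block 0 and 4 rose (1.31% and 3.63% of all genes). The difference was below 0 in 18 of the 21, against 8288 of 18193 genes over the array, and the median was -0.40. Over the lysosome genes the median gap between the arms was already -0.35 in DMSO. Eosinophil, erythroid, B cell and dendritic cell lists had 0 separated members, mast cell and basophil genes 1, megakaryocyte genes 1 and T and NK cell genes 2. Over all genes 1.53% were separated, so a count of 0 in lists this short says little.

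Most genes of growth had a difference above 0. Of 25 genes of MYC function and ribosome biogenesis 0 fell in cells labelled shSirt1 and 11 in shLUC cells, or 0 and 10 with the code as a block. Over all genes 0.181% and 2.36% fell, or 0.907% and 3.61% with the code as a block. The difference was above 0 in 24 of the 25, against 9905 of 18193 genes over the array, with a median of 0.40. None of the 25 was separated, against 1.53% of all genes. Odc1, the first enzyme of polyamine synthesis, measured -0.38 in cells labelled shSirt1 and fell in shLUC cells (-1.08, limma adjusted p = 0.0311), a difference of 0.71 (standard error 0.23, limma adjusted p = 0.642). Of 26 DNA replication genes 0 fell in cells labelled shSirt1 and 2 in shLUC cells, or 0 and 1 with the code as a block, and 23 had a difference above 0, with a median of 0.17. Of 26 immediate-early genes, 22 had a difference above 0, with a median of 0.26. Their median effects were 0.30 in A1 and 0.20 in A5, against 0.21 in A4 and -0.08 in D11, so A4 lay between the codes labelled shSirt1. Median centring of the arrays moved the median difference of all genes by 0.08, and with it 1318 genes passed in shLUC cells, 281 of them higher and 1037 lower, against 324 and 384 after quantile normalization.

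Of 23 FOXO factors and targets 0 rose in cells labelled shSirt1 and 4 in shLUC cells (0.214% and 1.62% of all genes). With the code as a block 1 and 6 rose (1.31% and 3.63% of all genes). Of the 23, 19 had a difference below 0, against 8288 of 18193 genes over the array. The list's median was -0.36, with codes at -0.27 in A1, 0.08 in A5, 0.29 in A4 and 0.37 in D11. Of 30 interferon response genes 1 fell in cells labelled shSirt1 (0.181% of all genes) and 3 rose in shLUC cells. With the code as a block 1 rose and 1 fell in cells labelled shSirt1, and 4 rose and 1 fell in shLUC cells. The difference was below 0 in 22 of the 30, with a median of -0.26. Rtp4, an interferon-induced chaperone of receptors, measured -0.28 in cells labelled shSirt1 and rose in shLUC cells (1.13, limma adjusted p = 0.0346). Its difference was -1.42, and that of its other probe set -0.09. The lists closest to the drug target had median differences near 0. The median was 0.14 for 9 HoxA genes and 0.09 for the 26 genes of DOT1L and its partners. That of 21 MLL-AF9 targets was -0.14 (0.07 with the mean of probe sets). Separated members numbered 1 among the targets and 0 in the other lists, where 1.53% of all genes were separated, so these counts say little. Of the 21 targets 0 passed in cells labelled shSirt1, while 1 rose and 3 fell in shLUC cells (1.62% and 2.36% of all genes). With the code as a block 1 rose and 1 fell in cells labelled shSirt1, and 3 and 3 in shLUC cells. HoxA members split, with differences of 0.81 for Hoxa7 and -0.64 for Hoxa10. Hoxa9 measured -0.14 in cells labelled shSirt1 and -0.34 in shLUC cells, while Hoxa10 measured -1.05 in cells labelled shSirt1 and -0.41 in shLUC cells. Hoxa7 measured -0.05 in cells labelled shSirt1 and -0.86 in shLUC cells, where it fell with the code as a block (limma adjusted p = 0.0300). Dot1l and Myc measured -0.10 and -0.03 in cells labelled shSirt1 and -0.06 and 0.43 in shLUC cells. Of these 5 genes 0 passed in either arm without the block. Cdkn2c, a brake on cyclin-dependent kinases, fell in cells labelled shSirt1 (-2.57, limma adjusted p = 0.0399) and in shLUC cells (-2.87, limma adjusted p = 0.0244). Inhba, a subunit of activin, rose in cells labelled shSirt1 (3.09, limma adjusted p = 0.0421) and in shLUC cells (2.23, limma adjusted p = 0.0402).

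**Figure D5:**
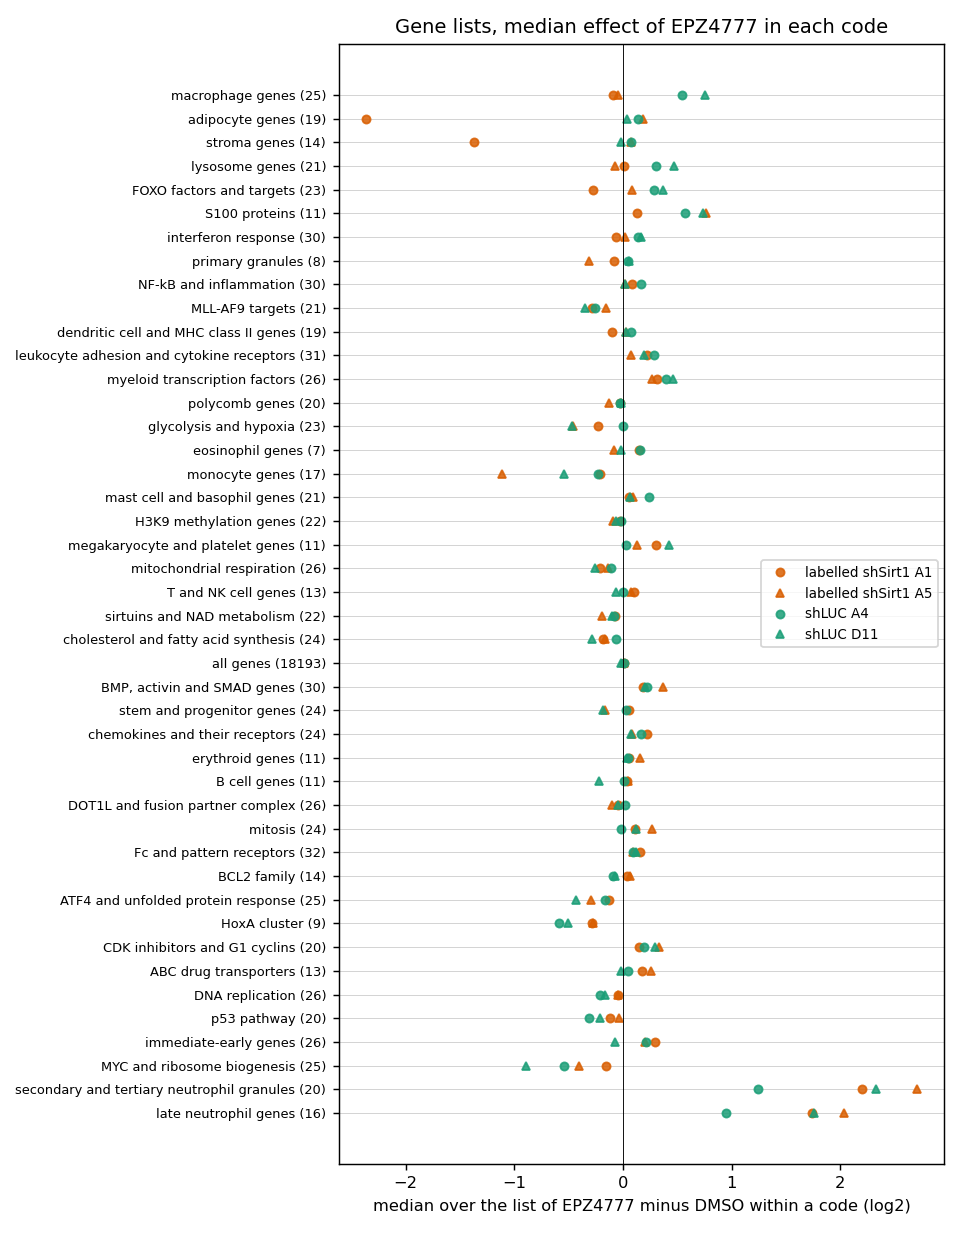
Median over each gene list of EPZ4777 minus DMSO within each code (x axis, log2), with the number of measured members in brackets and lists ordered by their median difference of effects. Orange marks are A1 and A5, labelled shSirt1, and green marks A4 and D11, shLUC. In the macrophage list (top) the orange marks lie at -0.09 and -0.04 and the green at 0.55 and 0.76.

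Most responses were nonetheless shared in sign. Of the 39 genes that rose in cells labelled shSirt1, 37 had positive values in both shLUC codes and 28 also rose there, and of the 33 that fell, 31 had negative values in both and 16 also fell. Of the 295 that rose in shLUC cells, 243 had positive and 24 negative values in both A1 and A5, and of the 429 that fell, 390 had negative and 7 positive values in both. The median effect of the 295 was 0.44 in cells labelled shSirt1 and 1.02 in shLUC cells, and that of the 429 was -0.33 in cells labelled shSirt1 and -0.79 in shLUC cells. The arm in which genes were called is favoured by that choice, so these sizes are a description only. Across all 18193 genes, which are not independent replicates, the arm means correlated at Pearson's r = 0.65. Between codes r was 0.58 for A1 and A5, 0.74 for A4 and D11, 0.37 for A1 and A4, 0.50 for A1 and D11, 0.52 for A5 and A4 and 0.72 for A5 and D11. The effects of A5 correlated with those of A1 at a value between those with A4 and with D11, and each code used its own 2 arrays.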

How the data were processed

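Total RNA of mouse MLL-AF9 leukemic cells was measured on 8 Affymetrix arrays. The authors deposited intensity values. Per the submitters' processing notes RMA was used, which corrects background, normalizes between arrays and summarises probe sets, and neither its version nor a chip definition is stated in the sources. The deposited intensity is taken as linear because it reaches 24500. RMA compresses low signals, so small values understate a change.

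Deposited intensity was converted to log2 without a pseudocount or any further normalization. Array medians lay between 5.21 and 5.27, and precision was limited by the number of arrays. Of 45101 probe sets 64 were controls, 34945 had 1 gene symbol in the platform annotation, 932 several and 9160 were not listed there. Each gene took its probe set with the highest mean, which gave 18193 genes, and no detection calls were used.

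Limma 3.58.1 in R 4.3.3 (with data.table, version 1.17.8) fitted the 4 group means over all 8 arrays (4 residual degrees of freedom), and Benjamini-Hochberg adjusted p-values, two-sided, were taken over all genes with a threshold of 0.05. The fit with the code as a fixed block left 2. A code's deviation from the mean of its group, compared between its EPZ4777 and its DMSO array, correlated across genes at 0.378 (shSirt1) and 0.293 (shLUC), with 2 values and not 4 because codes mirror each other within an arm. The pairing comes from the codes shared in the titles, and blocked values stand beside the results they move. The test was checked on simulated data with known changes. Of the calls there, 10.1% were false in the fixed-block fit and 5.77% without a block, both above the threshold of 0.05. The simulated arrays of a code shared no deviation, unlike the real ones. The check therefore cannot tell how many of the 3 genes that pass the difference with the block are false calls.

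Members, gene lists and patterns were chosen with earlier results of these data known. Named genes are those passing the difference, the 5 genes per pattern with the largest absolute moderated t among separated genes with a highest group mean of at least 6, the 3 separated members of each list with the largest difference, and a fixed set (such as Sirt1, Meis1 and C1qb). Symbols such as those ending in Rik were counted but not named. Other names are said to follow from their values. Alternatives were other scalings, probe set rules, variance models, thresholds, limits, the block and each array left out. Suv39h1 was not analysed here.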

Additional observations from a re-analysis of the deposited data

Results flagged for a closer look

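The genes below stood out because the response to EPZ4777 differed between the arms with the code as a block, or for their signs. The latter were named for an opposite pattern, and the codes of the arms lay on opposite sides of 0. Genes named by another route, such as Igf1, S100a4 and Ctss, had such signs too and are not listed. In limma without a block 0 genes passed the test of the difference. Two-sided limma adjusted p-values with the code as a block were 0.0244 for C1qb (difference of effects, labelled shSirt1 minus shLUC, -3.46 log2), 0.0244 for Smad1 (3.59) and 0.0247 for Mmp13 (-3.63). With either shLUC code left out 0 genes passed that test.

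Both codes labelled shSirt1 were below 0 and both shLUC codes above 0 in Ahnak (-2.53), Csn2 (-3.72), C9orf72 (-1.56), Irgm2 (-1.42) and Enah (-1.34). Both codes labelled shSirt1 were above 0 and both shLUC codes below 0 in Apol8 (2.28), Mboat1 (1.33) and Rnase2a (1.32). The difference of effects was not tested beyond the fits given above for these genes, and of them Ahnak passed with the code as a random block (limma adjusted p = 0.0345). That value comes from 1 of its 4 probe sets, and the others measured between -0.51 and 0.14. Enah has 6 probe sets, all of this sign, and those not used measured between -0.70 and -0.31. Time in drug and hairpin cannot be told apart in any of them.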

How the results depend on the processing

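Over 16 alternatives, 102 named genes gave 1632 values of the difference of effects. In the main fit 0 genes passed, so no named gene could lose the call, and a value that stayed the same still did not pass. Of the values 1574 kept their direction and did not pass. Another 33 passed, some of them in fits that leave 1 array in a group. The remaining 25 reversed, in 14 genes. With 1 array left out their lowest and highest values were -6.59 and 0.14 for Adipoq, -0.29 and 3.23 for Camp, -0.59 and 1.51 for Cd177, -0.14 and 0.74 for Cdkn2c, -0.18 and 0.092 for Dot1l, -0.12 and 3.39 for Gja1, -0.028 and 0.44 for Hoxa9, -0.28 and 2.49 for Ifitm6, -0.23 and 2.71 for Mgl2, -3.73 and 0.30 for Nrp1, -0.048 and 1.51 for Olfm4, -2.65 and 0.30 for Orm1, -0.39 and 0.49 for Sirt1, and -2.56 and 0.14 for Vldlr. With a code left out the reversed values were 0.34 for Adipoq, -0.15 for Cd177, -0.12 for Cdkn2c, 0.071 for Dot1l and -0.086 for Sirt1, and median centring gave 0.039 for Dot1l.

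The count of genes passing the difference was 0 in limma and 3 with the code as a fixed or as a random replicate block. At an adjusted p under 0.25 it was 5, or 68 with the block, at an adjusted p under 0.10 with the block 5, and at an unadjusted p under 0.001 38, or 70 with the block. With 1 array left out it was 0 to 89, and without both A5 arrays 69. With the block it was 39 without both A1 arrays, 194 without both A5 arrays and 0 without both A4 or both D11 arrays. Those fits leave 1 code in an arm, whose spread is taken from the other arm.

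In cells labelled shSirt1 72 genes passed, 404 and 504 with the code as a fixed and a random replicate block, 263 and 1661 at an adjusted p under 0.10 and 0.25, and 210 at an unadjusted p under 0.001. With 1 array left out it was 0 to 205, with 0 without A1 in DMSO or either shLUC array in DMSO, 1 without A5 in EPZ4777 and 37 without A1 in EPZ4777. With a code left out it was 14 (A1), 145 (A5) and 0 (A4 or D11). In shLUC cells 724 passed, against 1318 with median centring, 1526 over every probe set, 1424 among genes above the median level, 1316 and 2379 with the replicate blocks, 1958 and 4211 at an adjusted p under 0.10 and 0.25, and 446 at an unadjusted p under 0.001. With 1 array left out it was 0 to 1031, with 0 without either shLUC array in DMSO, 2 without D11 in EPZ4777 and 353 without either DMSO array labelled shSirt1. With a code left out it was 0 (A4 or D11) and 402 (A1 or A5).

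The 278 separated genes became 93 and 31 at limits of 1.5 and 2 log2, 159 among genes above the median level and 141 with either code labelled shSirt1. They became 513 without A5 and 458 without D11, of which 226 and 240 were among the 278. Genes placed with cells labelled shSirt1 alone, 20 up and 81 down, became 28 and 106 at a one-arm limit of 0.75. Without A5 they became 32 and 220, and without D11 50 and 128. The opposite responses, 5 and 43, became 10 and 73 without D11. They became 4 and 23 with the mean of probe sets, and 2 and 20 among genes above the median level. With the mean of probe sets the difference was over 1.5 times smaller in 21 of 102 named genes. Quantile normalization gave 276 separated genes (267 shared with the 278), and the mean of probe sets gave 200 (188 shared). No detection calls were used, and genes near the lower quartile of log2 intensity, 3.75 to 3.84, may be below background.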

Other observations

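The S100 and chemokine lists split by member. S100a9, a neutrophil calcium-binding protein, had a difference of 1.19, while S100a4 had -3.10. By code S100a9 measured 3.45 in A1 and 1.44 in A5, against 1.39 in A4 and 1.12 in D11. Its difference rested on its DMSO level in A1, 10.74, against 12.93 to 13.46 on the other DMSO arrays. With A5 alone it was 0.19. Among chemokines Ccl3 had a difference of 1.56 and Ccl2 and Ccl6 of -1.85 and -1.15. That of Ccl6 was -0.35 with A1 alone and -1.94 with A5 alone. For Ccl2 the arms also differed by -1.60 in DMSO.

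Aldoc, a glycolytic aldolase, measured -1.65 and -1.45 in A1 and A5, against -0.02 and -0.67 in A4 and D11, passed in cells labelled shSirt1 with the code as a block (limma adjusted p = 0.0750, or 0.0283 with it), and was the 1 separated member of 23 glycolysis and hypoxia genes. Of 26 mitochondrial respiration genes and 24 cholesterol and fatty acid synthesis genes 0 were separated, with median differences of 0.01 and 0.02. Over all genes 1.53% were separated.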
